A study of Mus musculus with 6 samples.

Results

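Metallothioneins and antioxidant enzymes were examined as a set of 10 genes, Mt1, Mt2, Mt3, Hmox1, Nqo1, Gclc, Gclm, Sod1, Sod2 and Cat, of the 21006 genes measured. They were chosen by gene symbol through their Ensembl identifiers and not by a rule on their values, and all 10 were found. Earlier results of these data were known when the set was chosen. mRNA was measured by RNA sequencing in the prefrontal cortex of wild type male C57BL/6 mice with an age label of 18 months, while the sample titles carry 17M. The PND group (postoperative neurocognitive disorder model, n = 3) was given isoflurane anesthesia and a laparotomy, which is surgical opening of the abdomen, and the CON group (n = 3) was untreated. Per the study's methods both groups had behavioral tests, and all mice, CON included, were put under isoflurane and perfused with saline before the tissue was taken. Levels are FPKM, the number of sequenced fragments per kilobase of exon scaled to sequencing depth.

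Metallothioneins are small, cysteine-rich proteins that bind zinc and copper. Mt1 and Mt2 are made in astrocytes and vessels of the brain and are induced by metals, glucocorticoids and cytokines, while Mt3 is the brain-enriched form and binds zinc in neurons and astrocytes. The enzymes form a second line. Sod1 in the cytosol and Sod2 in mitochondria turn superoxide into hydrogen peroxide, which Cat (catalase) breaks down in peroxisomes. Gclc and Gclm are the catalytic and the modifier subunit of glutamate-cysteine ligase, the first step of glutathione synthesis. Hmox1 (inducible heme oxygenase) and Nqo1 (a quinone reductase) are, with Gclc and Gclm, well known targets of the transcription factor Nrf2.

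The 3 metallothionein genes lie side by side on chromosome 8 within 27721 bases (94152607 to 94180327 in GRCm38, plus strand), in the order Mt3, Mt2, Mt1. Their promoters are shown because these neighboring genes had the widest spread between animals of the 10. Each window runs from 250 bases before the RefSeq start to 30 bases after it (RefSeq, GRCm38.p6, plus strand). Capitals mark the core of the metal response element, searched as TGCACNC and TGCGCNC on both strands. The windows are chr8:94178839-94179118 for Mt1, chr8:94172368-94172647 for Mt2 and chr8:94152357-94152636 for Mt3.
Mt1: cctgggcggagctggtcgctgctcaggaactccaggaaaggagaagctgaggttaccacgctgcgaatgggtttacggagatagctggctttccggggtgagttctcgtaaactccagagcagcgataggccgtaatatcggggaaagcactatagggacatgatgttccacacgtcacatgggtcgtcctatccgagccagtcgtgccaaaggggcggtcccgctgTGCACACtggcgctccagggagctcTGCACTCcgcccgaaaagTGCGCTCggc
Mt2: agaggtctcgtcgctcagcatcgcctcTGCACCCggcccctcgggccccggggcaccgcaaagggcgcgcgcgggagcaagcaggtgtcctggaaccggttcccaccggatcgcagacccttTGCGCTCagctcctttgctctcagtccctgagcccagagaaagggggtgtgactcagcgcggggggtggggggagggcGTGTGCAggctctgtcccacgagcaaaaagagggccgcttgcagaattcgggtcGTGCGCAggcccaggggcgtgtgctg
Mt3: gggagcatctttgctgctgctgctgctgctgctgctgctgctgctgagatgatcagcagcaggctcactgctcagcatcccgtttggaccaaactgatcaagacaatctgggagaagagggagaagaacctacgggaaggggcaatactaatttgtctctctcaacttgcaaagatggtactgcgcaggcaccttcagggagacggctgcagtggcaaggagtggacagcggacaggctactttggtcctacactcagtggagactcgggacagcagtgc
Mt1 held 3 such cores and Mt2 held 4, none of them overlapping, and no match to these letters was found in the Mt3 window. Among 32851 promoter windows of the same length, 24.08% held at least 1 core and 1.73% held at least 3. The core of the antioxidant response element (TGACNNNGC, both strands) was found in 1 place in each of the Mt2, Gclm and Sod1 windows and in 11.5% of all windows. A match of letters is a description and does not show that a factor binds there. Promoter sequences were matched for 8 of the 10 genes, the exceptions being Hmox1 and Gclc.

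Depth was not given and was estimated from the steps of the lowest values. It lay between 7191893 and 9386840 fragments per sample. The libraries differed in how they represented genes of high GC content. In the 1232 genes at or above 56.6% GC and 1 FPKM the median deviation from the gene mean, here called the high-GC shift, was 0.11, -0.30 and 0.37 on the log2 scale in PND replicates 1 to 3 and -0.56, 0.49 and -0.04 in CON replicates 1 to 3. The lowest and the highest shift were both in CON, and the groups overlapped. Defining markers of the labelled tissue were present. All 6 cortical markers (summed level 133 to 138 FPKM in PND and 135 to 162 FPKM in CON) and all 8 neuronal markers (823 to 889 FPKM and 832 to 914 FPKM) were detected.

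The question was whether these defenses differ between mice with and without the operation. The groups were compared by limma on log2(FPKM + 0.1) over 18185 genes. None of the 10 genes passed the study's cut-off, an absolute log2 fold change above 1 with an unadjusted p below 0.05, which 1.33% of all genes passed (0.841% higher and 0.484% lower in PND, or 153 and 88 genes, and 124 and 116 genes after quantile normalization). In limma 0 of the 10 had an unadjusted p below 0.05, against 3.13% of all genes, and 0 had an adjusted p below 0.05, against 0.011%. The samples of both groups overlapped for all 10 genes, whereas for 7.66% of all genes they did not, 3.78% being higher in PND. The median log2 fold change of the 10 genes was 0.12, with 8 above and 2 below 0, and it was 0.01 over all genes tested, with 9529 above and 8656 below 0. Without CON replicate 2 the median of the 10 genes was 0.02, with 5 above and 5 below 0. Without CON replicate 1 it was 0.20 and without PND replicate 2 it was 0.09, with 6 above and 4 below 0 in both. The 3 metallothioneins had the largest estimates of the set and also wide intervals. The enzymes lay between -0.11 and 0.18.

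**Figure D1:**
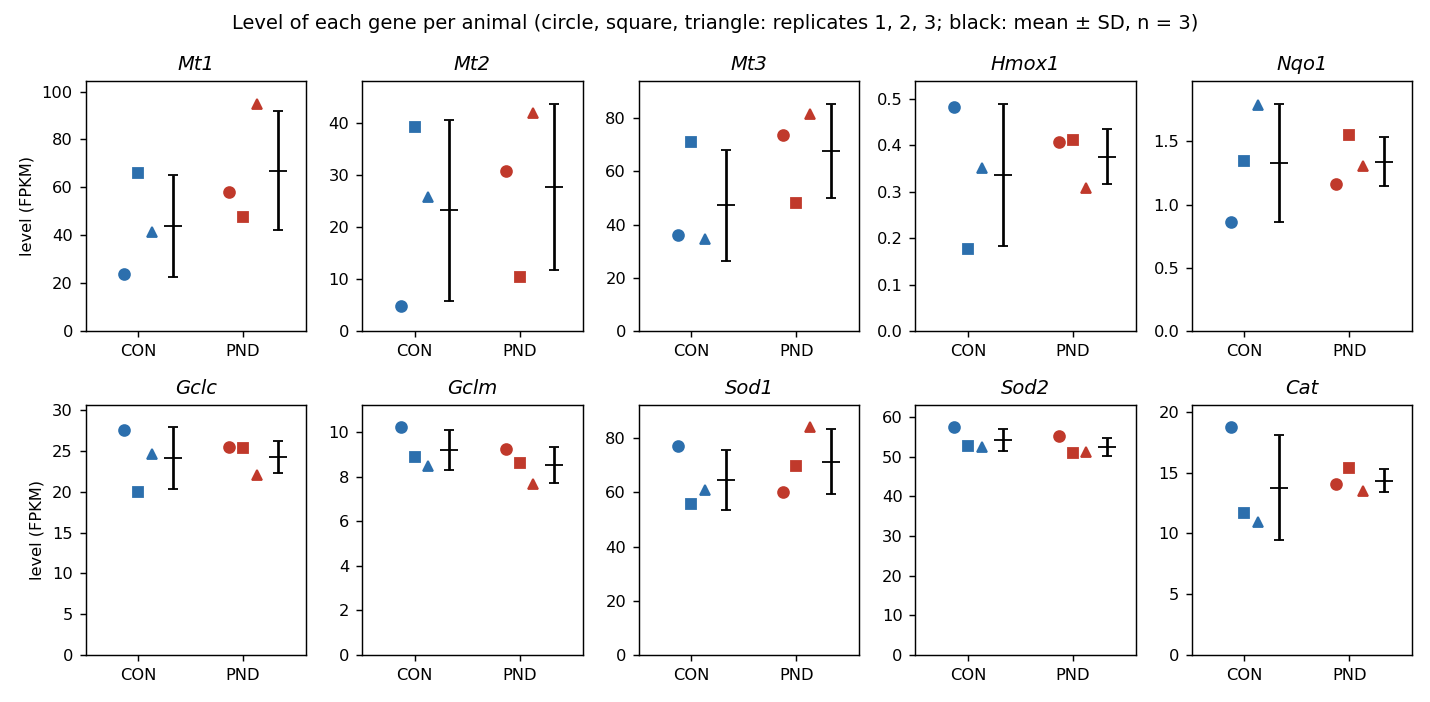
Level of each of the 10 genes in FPKM (linear axes from 0) in the 3 CON and 3 PND animals, with the mean and SD of each group beside the points. The points of the groups overlap in every panel, and the spread is widest for Mt2, from 4.80 to 42.0 FPKM.

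Mt1 (ENSMUSG00000031765, chromosome 8, 94179082 to 94180327) had 58.2, 47.8 and 94.9 FPKM in PND replicates 1 to 3 and 24.0, 66.1 and 41.2 FPKM in CON replicates 1 to 3. The highest animal was in PND and the lowest in CON, but CON replicate 2 lay above PND replicates 1 and 2. The PND mean was 67.0 ± 24.7 FPKM and the CON mean was 43.8 ± 21.2 FPKM (SD, n = 3 each). The log2 fold change was 0.67 (SE 0.39, 95% interval -0.24 to 1.58, limma unadjusted p 0.126, adjusted p 0.9999). The difference was within the spread between animals. It rested in part on single animals, being 0.30 (p 0.396 by limma) without CON replicate 1, 0.39 (p 0.373) without PND replicate 3 and 1.03 (p 0.0222) without CON replicate 2. In the latter fit Mt1 passed the cut-off, while its adjusted p was 0.828.

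Mt2 (ENSMUSG00000031762, chromosome 8, 94172664 to 94173568) was the least even of the 10 genes. Its level was 30.9, 10.5 and 42.0 FPKM in the PND animals and 4.80, 39.3 and 25.8 FPKM in the CON animals. The lowest and the second highest value were thus both in CON. The highest was 8.74 times the lowest, a range of an estimated 21.2 fragments in CON replicate 1 to 232 in PND replicate 3. The means were 27.8 ± 16.0 and 23.3 ± 17.4 FPKM (SD, n = 3 each), with a log2 fold change of 0.49 (SE 0.82, 95% interval -1.42 to 2.40, limma unadjusted p 0.567). The interval spans from 0.37 to 5.27 times the CON level, so a difference of either sign was not detectable with these animals. Without CON replicate 1 the sign turned, with a log2 fold change of -0.41 (limma p 0.492). Without CON replicate 2 it was 1.09 (p 0.231), without PND replicate 2 it was 1.08 (p 0.250) and without PND replicate 3 it was 0.08 (p 0.932). Its exons overlap those of Gm45774 on the opposite strand over 432 bases, and the use of strand in counting was not stated.

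Mt3 (ENSMUSG00000031760, chromosome 8, 94152607 to 94154146) had 73.7, 48.0 and 81.6 FPKM in PND and 36.0, 71.2 and 34.6 FPKM in CON. Of the CON animals replicate 2 lay among the PND values, and the other CON animals lay below all PND animals. The means were 67.8 ± 17.6 and 47.3 ± 20.7 FPKM (SD, n = 3 each), with a log2 fold change of 0.57 (SE 0.31, 95% interval -0.17 to 1.30, limma unadjusted p 0.112, adjusted p 0.9999). Without CON replicate 2 it was 0.90 (limma p 0.00667, adjusted p 0.828), and without PND replicate 2 it was 0.80 (p 0.0489). It was 0.39 (p 0.320) without CON replicate 3. When the trend of each library with GC content was removed, the log2 fold change was 0.47 (SE 0.17, limma unadjusted p 0.0274, adjusted p 0.9999). The deviations were then 0.36, 0.18 and 0.16 in the PND animals and 0.07, -0.16 and -0.61 in the CON animals, so that the groups no longer overlapped. Over all 18185 genes, 793 had an unadjusted limma p below 0.05 after this correction, against 569 before it. The share of all genes with groups not overlapping was not computed after the correction. With the replicate number as a block in addition, the limma p of Mt3 was 0.0144. After adjustment over all genes this gene did not pass in any of the 17 alternatives run.

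Summed over the 3 genes, the metallothionein level was 163, 106 and 218 FPKM in PND and 64.7, 177 and 102 FPKM in CON. The proportions of the genes differed between animals. The ratio of Mt1 to Mt2 was between 1.60 and 2.26 in CON replicates 2 and 3 and PND replicates 1 and 3. It was 4.57 in PND replicate 2 and 4.99 in CON replicate 1, the animals with the least Mt2. The ratio of Mt1 to Mt3 stayed between 0.67 and 1.19. Over the 6 animals the log2 levels of Mt1 and Mt2 had a Pearson r of 0.87 (exact permutation p 0.0139, adjusted 0.0521) and a Spearman rho of 0.94 (exact p 0.0167, adjusted 0.0833). Without the extreme animals in Mt1, PND replicate 3 and CON replicate 1, r was 0.55, so the relation of Mt1 and Mt2 rested on those animals. For Mt1 and Mt3 r was 0.88 (exact permutation p 0.0097, adjusted 0.0521) and rho was 0.89 (exact p 0.0333, adjusted 0.1), and r was 0.95 without the same animals. For Mt2 and Mt3 r was 0.72 (exact permutation p 0.119, adjusted 0.199) and rho was 0.77 (exact p 0.103, adjusted 0.220), and r was 0.84 without PND replicate 2 and CON replicate 1. The tests were two-sided and adjusted by Benjamini-Hochberg over 15 relations, all computed after the values were seen, and none of these 3 relations had an adjusted p below 0.05.

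The relation of the metallothioneins with the high-GC shift of the libraries was past the adjusted threshold for Mt2 by Pearson r and not for Mt1 or Mt3. Their transcripts had a GC content of 52.9% (Mt1), 55.6% (Mt2) and 62.3% (Mt3), against a median of 48.4% over the genes tested. For Mt2 and the high-GC shift r was 0.95 (exact permutation p 0.0028, adjusted 0.0417), rho was 0.94 (exact p 0.0167, adjusted 0.0833), and r was 0.96 without CON replicates 1 and 2. For Mt1 r was 0.88 (exact permutation p 0.0194, adjusted 0.0521), rho was 0.89 (exact p 0.0333, adjusted 0.1) and r was 0.83 without the same animals. For Mt3 r was 0.79 (exact permutation p 0.0764, adjusted 0.159), rho was 0.66 (exact p 0.175, adjusted 0.263) and r was 0.69 without them. Removal of the GC trend narrowed the SD over the 6 animals from 1.23 to 0.98 on the log2 scale for Mt2, from 0.67 to 0.53 for Mt1 and from 0.55 to 0.34 for Mt3. It widened the SD of Hmox1 (0.376 to 0.54), Nqo1 (0.336 to 0.354), Cat (0.277 to 0.302), Gclc (0.166 to 0.174) and Sod1 (0.23 to 0.237). That of Gclm narrowed (0.136 to 0.093) and that of Sod2 stayed at 0.067. The r of Mt1 and Mt2 was then 0.79, that of Mt1 and Mt3 was 0.27 and that of Mt2 and Mt3 was -0.17. Hmox1, with a GC content of 53.3% close to that of Mt1 and an estimated 2.5 to 6.3 fragments per animal, had r of -0.85 (exact permutation p 0.0208, adjusted 0.0521), rho of -0.94 (exact p 0.0167, adjusted 0.0833) and r of -0.74 without CON replicates 1 and 2. Gclc, with a GC content of 47.7%, had r of -0.91 (exact permutation p 0.0139, adjusted 0.0521), rho of -0.83 (exact p 0.0583, adjusted 0.146) and r of -0.79 without the same animals. For Cat r was -0.74 (exact permutation p 0.0847, adjusted 0.159), rho was -0.66 (exact p 0.175, adjusted 0.263) and r was -0.21 without them.

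**Figure D2:**
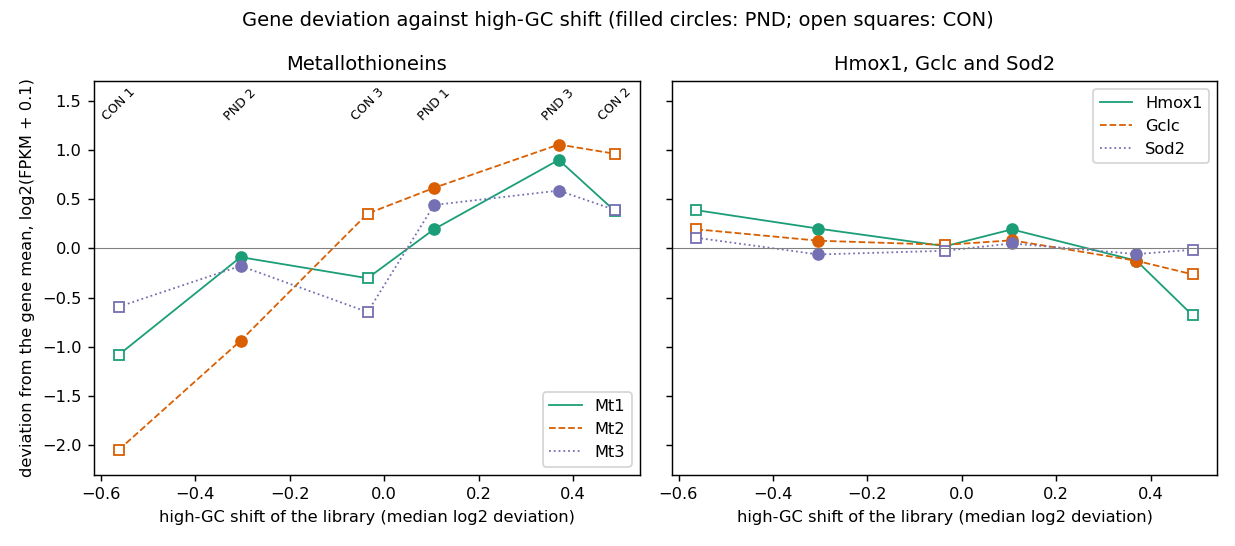
Deviation of single genes from their mean over the 6 animals, on the log2(FPKM + 0.1) scale, against the high-GC shift of each library, for the metallothioneins (left) and for Hmox1, Gclc and Sod2 (right). Mt2 climbs from -2.05 in CON replicate 1 to 1.06 in PND replicate 3, while Sod2 stays between -0.06 and 0.11.

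Within groups the SD of the log2 level was 1.35 for Mt2, 0.63 for Mt1 and 0.50 for Mt3. Among genes within 2-fold of the same mean level, 99.6%, 96.4% and 94.5% had a smaller SD, respectively. Sod2 stood at the other end, with an SD of 0.07 that was larger than that of 7.8% of genes of like level. Among the genes whose pattern over the 6 animals was most like the mean of Mt1 and Mt2, of 12164 genes with at least 1 FPKM, were Tubb2a, Mapk8ip1, Lhfpl4 and Ehmt2. Their Pearson r lay between 0.9952 and 0.9993. Tubb2a, a beta-tubulin, had 36.7, 26.4 and 44.7 FPKM in PND and 18.4, 39.0 and 31.4 FPKM in CON. The GC content of these 4 genes lay between 55.2% and 60.8%. With 6 animals and this many genes such values are a description and carry no test.

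Among the enzymes, the superoxide dismutases were abundant and close to equal in the groups. Sod1 (ENSMUSG00000022982, chromosome 16, 90220754 to 90226329) had 60.2, 69.9 and 83.9 FPKM in PND and 77.0, 55.7 and 60.9 FPKM in CON. The means of 71.3 ± 11.9 and 64.5 ± 11.1 FPKM (SD, n = 3 each) differed by less than the spread between animals. PND minus CON came to a log2 fold change of 0.14 (SE 0.17, 95% interval -0.25 to 0.54, limma unadjusted p 0.413). Sod2 (ENSMUSG00000006818, chromosome 17, 13006846 to 13040063) was the most even gene of the set, with 55.1, 50.9 and 51.1 FPKM in PND and 57.3, 52.7 and 52.3 FPKM in CON. The highest value was 1.13 times the lowest. The log2 fold change was -0.05 (SE 0.09, 95% interval -0.27 to 0.17, limma unadjusted p 0.631). The interval corresponds to 0.83 to 1.13 times the CON level. Transcripts of Sod2 share stretches of at least 100 bases at 95% identity or more with 16 other genes, the longest being 3110 bases with Rps6ka2, so its level may hold fragments of other genes. The ratio of Sod1 to Sod2 ranged from 1.09 to 1.64 in PND and from 1.06 to 1.34 in CON.

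Cat (ENSMUSG00000027187, chromosome 2, 103453849 to 103485160) had 14.1, 15.4 and 13.5 FPKM in PND and 18.7, 11.7 and 10.9 FPKM in CON. The PND animals lay close together, between CON replicate 1 and the other CON animals. On the log2 scale PND minus CON was 0.10 (SE 0.21, 95% interval -0.39 to 0.58, limma unadjusted p 0.657). No direction was called for Cat, and the estimate moved with each CON library. Without CON replicate 1 its log2 fold change was 0.34 (limma unadjusted p 0.0295, adjusted p 0.970), and without CON replicate 2 or 3 it was -0.002 and -0.047.

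Of the glutathione ligase subunits, Gclc (ENSMUSG00000032350, chromosome 9, 77754535 to 77794485) had 25.5, 25.4 and 22.1 FPKM in PND and 27.6, 20.0 and 24.7 FPKM in CON. Between the groups the log2 fold change came to 0.02 (SE 0.14, 95% interval -0.31 to 0.36, limma unadjusted p 0.879). Gclm (ENSMUSG00000028124, chromosome 3, 122245557 to 122270732) had 9.27, 8.63 and 7.68 FPKM in PND and 10.2, 8.91 and 8.48 FPKM in CON, with a log2 fold change of -0.11 (SE 0.14, 95% interval -0.43 to 0.21, limma unadjusted p 0.454). Both subunits were thus measured to within about the same margin, and no difference was detected. The ratio of Gclc to Gclm was 2.75, 2.95 and 2.87 in PND and 2.70, 2.25 and 2.91 in CON, so the balance of the subunits also overlapped. Gclc was highest in CON replicate 1 and lowest in CON replicate 2. Exons of Gclm overlap Gm17494 on the opposite strand (296 bases) and the pseudogene Gm6061 (244 bases), and it shares near-identical stretches with 17 genes, so its level is uncertain to that extent.

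The inducible stress enzymes were near the limit of what this depth can measure. Hmox1 (ENSMUSG00000005413, chromosome 8, 75093621 to 75100589) had 0.408, 0.411 and 0.308 FPKM in PND and 0.482, 0.177 and 0.351 FPKM in CON, an estimated 2.5 to 6.3 fragments per animal. These are not whole numbers, so they are approximate. In limma the log2 fold change came to 0.18 (SE 0.38, 95% interval -0.71 to 1.07, limma unadjusted p 0.651). Nqo1 (ENSMUSG00000003849, chromosome 8, 107388225 to 107403206) had 1.16, 1.55 and 1.30 FPKM in PND and 0.859, 1.34 and 1.79 FPKM in CON, an estimated 10 to 20 fragments per animal. The log2 fold change came to 0.05 (SE 0.30, 95% interval -0.64 to 0.75, limma unadjusted p 0.863). For Hmox1 a doubling lay within the interval and could not be told from no change at this depth.

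**Figure D3:**
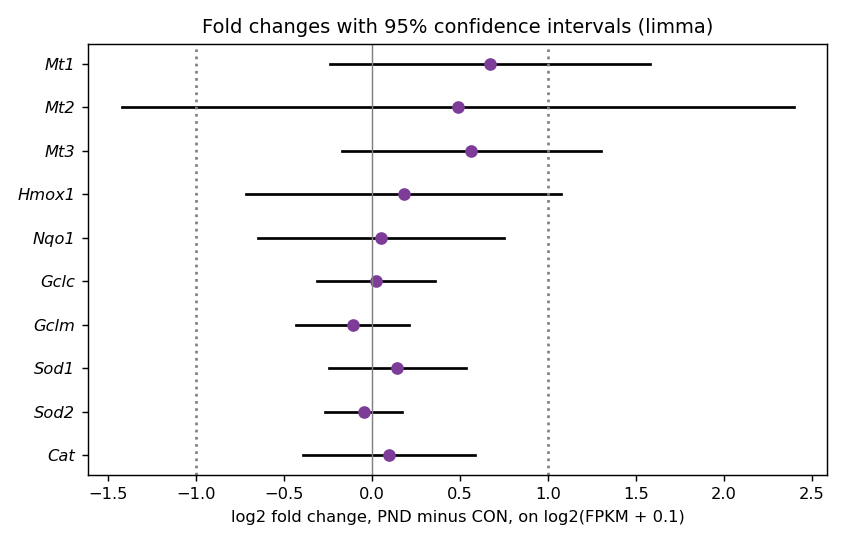
Log2 fold change of each gene, PND minus CON, on the log2(FPKM + 0.1) scale, with 95% confidence intervals from limma (n = 3 per group) and dotted lines at the cut-off of 1 in either direction. All 10 intervals include 0, and the narrowest is that of Sod2 (-0.27 to 0.17) and the widest that of Mt2 (-1.42 to 2.40).

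Across genes, the per-length levels fell from Sod1 (mean 67.9 FPKM over the 6 animals) through Mt3 (57.5), Mt1 (55.4) and Sod2 (53.2) to Mt2 (25.5), Gclc (24.2), Cat (14.1), Gclm (8.86), Nqo1 (1.33) and Hmox1 (0.356). Neighbors from Sod1 to Sod2 did not differ beyond their spread over animals, nor did Mt2 and Gclc. The order also depends on the exon length that was used. The merged exons of Sod1 in GENCODE M21 are 6.19 times as long as its principal transcript of 641 bases, those of Mt1 are 2.27 times and those of Mt3 1.99 times as long, while for Cat and Nqo1 the lengths are equal. Comparisons of a gene between animals are not touched by this.

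The wider system was covered by 104 further genes in 6 lists, of which 101 passed the filter on low values. In limma 3 of these had an unadjusted p below 0.05, 1 passed the cut-off (higher in PND) and 0 had an adjusted p below 0.05. These shares are near the 3.13% and 1.33% of all genes, so the 3 genes are given by their values and not as a result about the lists. The median of the 101 log2 fold change was 0.05. Of the 21 glutathione genes, Gpx3 passed the cut-off and none fell past it, with a list median of 0.13. Gpx3 encodes a secreted glutathione peroxidase. It had 2.48, 1.65 and 2.38 FPKM in PND and 1.63, 0.673 and 0.879 FPKM in CON, with all PND animals above all CON animals. PND replicate 2 and CON replicate 1 were close to each other. The log2 fold change came to 1.03 (SE 0.34, limma unadjusted p 0.0184, adjusted p 0.9999). The limma p was above 0.05 without PND replicate 1 (log2 fold change 0.93, p 0.0660), PND replicate 3 (0.96, p 0.0626), CON replicate 2 (0.78, p 0.0535) or CON replicate 3 (0.95, p 0.0607), and after GC correction (0.95, p 0.0687). When the GC correction was combined with the replicate block the limma p was 0.0427.

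G6pdx, the first enzyme of the NADPH-producing pentose phosphate pathway, had 6.45, 5.74 and 5.91 FPKM in PND and 3.87, 4.96 and 5.12 FPKM in CON. All PND animals lay above the CON animals, and the log2 fold change was 0.38 (SE 0.16, limma unadjusted p 0.0481, adjusted p 0.9999). Slc39a10, a zinc importer of the cell membrane, had 45.7, 52.9 and 51.2 FPKM in PND and 57.9, 64.2 and 56.1 FPKM in CON. All PND animals lay below the CON animals, and the log2 fold change was -0.25 (SE 0.11, limma unadjusted p 0.0479, adjusted p 0.9999). With the replicate number as a block the p was 0.108 for G6pdx and 0.0867 for Slc39a10, and 0.0136 for Gpx3. G6pdx kept a p below 0.05 in 9 and Slc39a10 in 5 of 17 alternatives, and both were lost without PND replicate 1, 2 or 3 and without CON replicate 1. Slc39a10 was also lost without CON replicate 2 (limma p 0.123) and without CON replicate 3 (limma p 0.0567).

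In the other lists no gene passed the cut-off. The median log2 fold change was 0.04 for 17 thioredoxin and peroxiredoxin genes, 0.05 for 20 genes of Nrf2 control and NADPH supply, 0.02 for 13 heme and iron genes, 0.06 for 19 zinc and copper genes and 0.00 for 11 genes of superoxide and peroxide handling. The most abundant gene of each list was Gsta4 (26.2 FPKM, a glutathione transferase), Txnrd1 (15.5 FPKM, thioredoxin reductase), Cul3 (51.8 FPKM, the scaffold of the ligase that marks Nrf2 for degradation), Fth1 (338 FPKM, the ferritin heavy chain), Slc39a10 (54.7 FPKM) and Oxr1 (83.4 FPKM, an oxidation resistance gene). For the regulators Nfe2l2, Keap1 and Mtf1, named here for their role, no difference beyond the spread was detected. Nfe2l2, which encodes Nrf2, averaged 4.87 ± 0.456 FPKM in the PND animals and 5.88 ± 0.814 FPKM in the CON animals (SD, n = 3 each, limma unadjusted p 0.149). Its inhibitor Keap1 had 1.93 ± 0.317 and 1.87 ± 0.362 FPKM (limma p 0.841). Mtf1, the zinc-sensing factor that binds metal response elements, had 2.66 ± 0.206 and 2.14 ± 0.468 FPKM (limma p 0.180). Of the other genes of Nrf2 control, Bach1 had all PND animals above all CON animals (log2 fold change 0.26, limma unadjusted p 0.189). Groups did not overlap in 7.66% of all genes. Nfe2l1 had a log2 fold change of -0.73 (limma unadjusted p 0.0606) with overlapping groups. The adjusted p was 0.9999 for both.

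**Figure D4:**
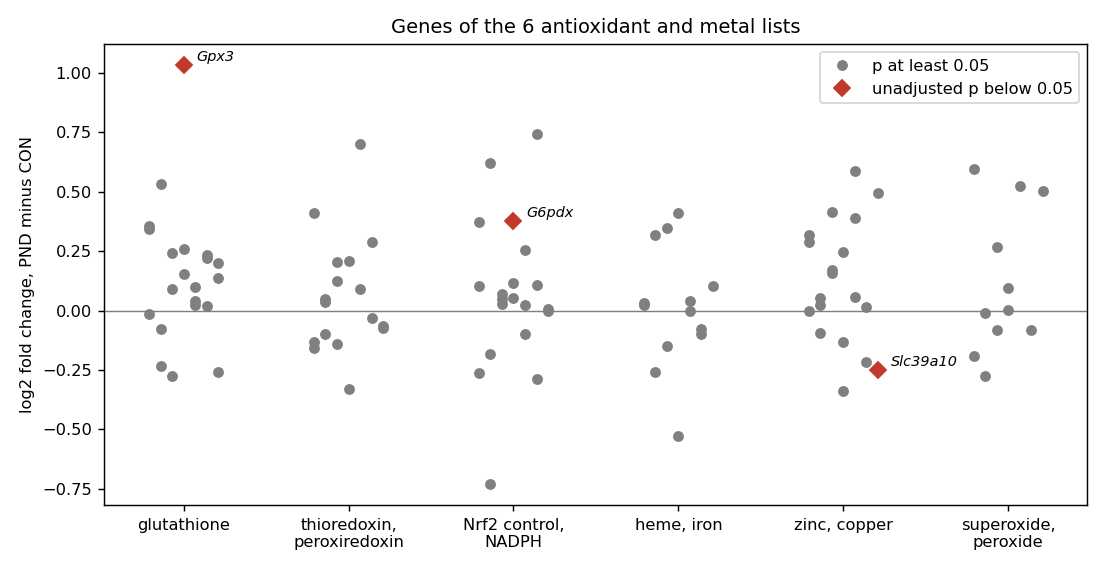
Log2 fold change, PND minus CON, of the 101 tested genes of the 6 lists, 1 point per gene, with red diamonds for an unadjusted limma p below 0.05. Only Gpx3, G6pdx and Slc39a10 are so marked, at 1.03, 0.38 and -0.25.

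Markers of the cell types that make metallothioneins were read beside them. In bulk tissue fewer cells of a type and less RNA per cell cannot be told apart. The summed level of 10 astrocyte markers was 377 to 506 FPKM in PND and 324 to 625 FPKM in CON, with 6 of 10 above 0 in log2 fold change. Most of the range of that sum came from Slc1a2, at 113 to 219 FPKM in PND and 68.5 to 368 FPKM in CON. Gfap, the intermediate filament of astrocytes, had 22.9, 17.7 and 24.7 FPKM in PND against 13.0, 14.9 and 13.0 FPKM (log2 fold change 0.66, limma unadjusted p 0.00294, adjusted p 0.9999). The gap junction gene Gjb6 had a log2 fold change of 0.43 (limma p 0.0373). The water channel Aqp4 had 25.6, 21.5 and 24.8 FPKM against 34.5, 26.8 and 31.3 FPKM (log2 fold change -0.36, limma p 0.0275), so these markers had estimates of both signs. Endothelial markers summed to 42.6 to 49.5 FPKM in PND and 39.6 to 50.2 FPKM in CON, mural cell markers summed to 37.0 to 42.6 and 33.6 to 48.2 FPKM, and meningeal fibroblast markers summed to 25.8 to 52.7 and 14.8 to 41.7 FPKM. Single endothelial markers had estimates of both signs. Ly6c1 had 7.11, 5.99 and 4.27 FPKM in PND and 3.20, 3.35 and 3.12 FPKM in CON, with all PND animals above all CON animals (log2 fold change 0.79, limma unadjusted p 0.00568, adjusted p 0.9999). Tek, an endothelial receptor, had 1.82, 1.62 and 1.65 FPKM in PND and 2.49, 2.06 and 2.17 FPKM in CON, with all PND animals below (log2 fold change -0.38, limma p 0.0776). The meningeal sum was lowest in CON replicate 1 and PND replicate 2, as Mt2 was. These samples also had the lowest high-GC shift (-0.56 and -0.30). Dcn was instead lowest in PND replicate 3 (2.86 FPKM), where Mt2 was highest, and Lum in PND replicate 1 (0.436 FPKM). The other meningeal markers were lowest in CON replicate 1 and PND replicate 2. The meningeal sum is made up mostly of Ptgds, and Col1a1 and Col3a1 stayed at or below 0.283 FPKM in every animal. Of the erythrocyte markers, Hba-a1, Hba-a2, Hbb-bs and Hbb-bt were all listed at 0 in PND replicate 2 and CON replicates 2 and 3, and their sum reached 2.76 FPKM in PND replicate 1. Choroid plexus Ttr was at most 0.208 FPKM. The part of these cell types in the metallothionein levels was not tested.

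The summed levels of the remaining lists also overlapped between the groups, although those of some single markers did not. Microglial markers summed to 53.9 to 63.2 FPKM in PND and 51.4 to 67.4 FPKM in CON, and oligodendrocyte markers to 240 to 303 FPKM and 274 to 299 FPKM. The microglial receptor P2ry12 was below all CON animals in all PND animals (log2 fold change -0.76, limma unadjusted p 0.00767), and the myelin gene Opalin had a log2 fold change of -0.79 (limma p 0.0291) with overlapping groups. Of the choroid plexus markers Clic6 had a log2 fold change of 0.80 (limma p 0.0319). The adjusted p was 0.9999 for each of these 3 genes. Markers of the striatum, a neighboring region, summed to 199 to 250 FPKM in PND and 130 to 334 FPKM in CON, with the lowest and the highest value both in CON. All 8 choroid plexus markers together summed to 31.7 to 38.2 and 33.3 to 37.7 FPKM, nearly all of it from Enpp2, which oligodendrocytes also express.

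**Figure D5:**
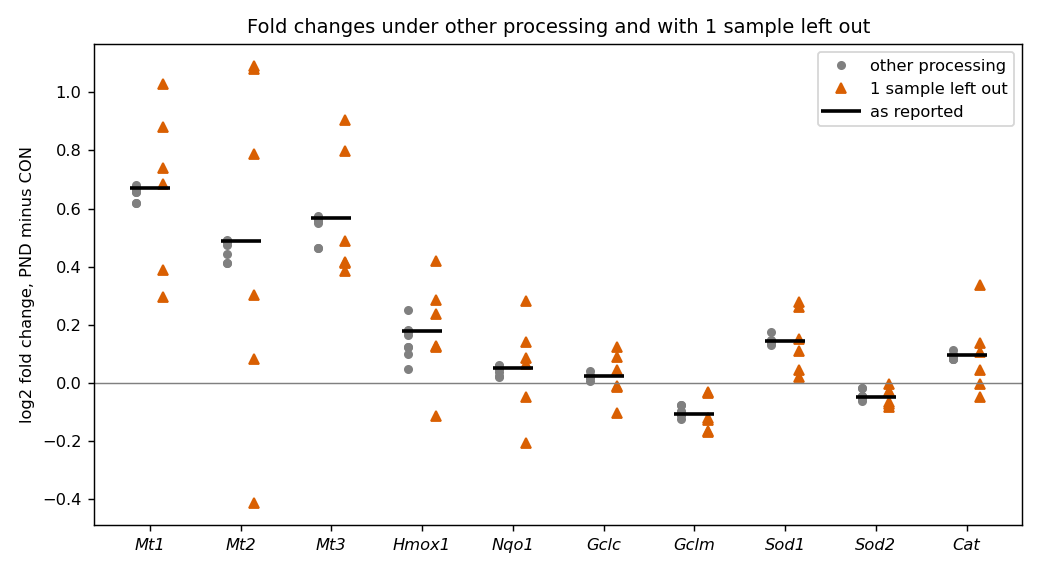
Log2 fold change of the 10 genes, PND minus CON, as reported (black bars), under other processing (grey) and with 1 animal left out (orange triangles). The single animals move Mt2 from -0.41 to 1.09, whereas Sod2 stays between -0.08 and 0.00.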

How the data were processed

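Prefrontal cortex mRNA of 3 PND and 3 CON mice was analysed. Per the study's methods the authors removed ribosomal RNA, filtered reads with Seqtk, aligned them with HISAT2, counted fragments with StringTie, scaled them by TMM and deposited them as FPKM, 1 column per animal. Versions of these tools and the annotation were not given in the sources used here. The submitters' processing notes list Bowtie 0.12.2 and the builds mm8 and mm9, without a role. Strand use in counting was not stated.

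Of 21006 identifiers, 20866 matched a symbol and a gene of GENCODE M21 (GRCm38), which gave coordinates, merged exon lengths and the GC content of the longest transcript. Coordinates are not from the deposited values. Groups came from the treatment label and replicate numbers from the titles. No pair of samples was identical, and whether animals shared cages or litters was not stated, so p-values cover the spread between these animals.

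The 18185 genes averaging 0.1 FPKM or more were tested on log2(FPKM + 0.1) in limma 3.58.1 (R 4.3.3), using eBayes with trend = TRUE and no covariates. This scale understates the change of low genes. Adjustment was by Benjamini-Hochberg over all genes. Effective depth was read from the lowest step of FPKM times exon length. Between 41.1% and 44.7% of low values came out within 0.05 of a whole fragment, so fragment numbers are estimates and no count test was run. Relations between genes over animals were tested by exact permutation (scipy 1.17.1). Shared stretches were found with blastn 2.17.0. GC correction removed, per sample, a lowess trend (span 0.3) of the log2 deviations on GC content.

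Named genes were the 10 members, the list genes with an unadjusted p below 0.05 or past the cut-off, the most abundant gene of each list, and the 5 genes most correlated with Mt1 and Mt2, of which 1 is not reported here. Other named genes were chosen after their values were seen. Of the listed genes Mt4, Osgin1, Alas2 and Slc4a1 were among those not analysed here, and Nox4 was below the filter. The members, lists and tests were chosen with earlier results of these data known. Same-numbered samples did not deviate together (correlations -0.05, -0.45 and 0.03 over 12387 genes), so the main fit has no block.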

Additional observations from a re-analysis of the deposited data

How the results depend on the processing

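The number of the 10 genes past the cut-off was 0 under every alternative that kept all 6 samples, and (without Hmox1 where a mean of 1 FPKM was required), and between 0 and 1 with 1 sample left out, the 1 being Mt1 without CON replicate 2. Over all genes 241 passed. This was 25 with a pseudocount of 1 FPKM, 59 when genes had to average 1 FPKM and 88 with p below 0.01, and 240 to 402 with 1 sample left out, the highest without CON replicate 2. Of the list genes 1 passed. With a pseudocount of 1 FPKM, with p below 0.01, after GC correction, and after GC correction combined with the replicate block, none passed (0), and with 1 sample left out it was 0 to 2 (0 without PND replicate 1 or 3, 2 without PND replicate 2 or CON replicate 3). The median log2 fold change of the 10 genes stayed between 0.02 and 0.20.

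Signs turned for 5 of the 10 genes, in fits that left out a sample and in no other. The log2 fold changes there ranged from -0.413 to 1.09 for Mt2, -0.115 to 0.42 for Hmox1, -0.208 to 0.28 for Nqo1 (-0.049 without PND replicate 2), -0.104 to 0.12 for Gclc (-0.013 and -0.011 without PND replicates 1 and 2) and -0.047 to 0.34 for Cat (-0.002 without CON replicate 2). None of these genes had a called direction. Those of Mt1, Mt3, Sod1, Gclm and Sod2 kept their sign in all 17 alternatives.

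Both groups use the same replicate numbers, which were not shown to pair the samples. With the replicate block 226 genes passed in place of 241, 0 of the 10 genes and 1 list gene passed, and the median of the 10 genes was 0.12. With 3 animals per group the intervals allow changes of about 2-fold in Hmox1 and more in Mt1, Mt2 and Mt3, and low depth limits Hmox1 and Nqo1. The cause of the shifts without single samples was not tested.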

Other observations

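The subunits of ferritin, the iron store that limits iron-driven oxidation, were listed at very different levels. Fth1, the heavy chain, averaged 328 ± 33.3 FPKM in the PND animals and 347 ± 55.8 FPKM in the CON animals (SD, n = 3 each), whereas Ftl1, the light chain, had 2.96 ± 0.839 and 3.03 ± 1.91 FPKM. Ftl1 was highest in CON replicate 2 (5.17 FPKM) and lowest in CON replicate 1 (1.51 FPKM), the same animals that bounded the high-GC shift. For neither gene was a difference beyond the spread detected (limma unadjusted p 0.616 for Fth1 and 0.819 for Ftl1). The glutathione peroxidases Gpx4 and Gpx1 were listed at means of 2.56 and 1.81 FPKM over the 6 animals, below the mitochondrial peroxiredoxin Prdx3 at 14.5 FPKM. Shared stretches were searched only for the 10 genes of the set. Whether sequence shared with other genes or the exon length used lowered the levels listed for Ftl1, Gpx4 or Gpx1 was not tested.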
